A study of Mus musculus with 20 samples.

Results

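Gpnmb and the 4 MiT/TFE transcription factors Mitf, Tfec, Tfeb and Tfe3 were followed in microglia sorted from the injured mouse spinal cord. These 5 genes were taken by symbol from a table of 16810 genes, in which all 5 were found. Gpnmb was selected on its rise, which was the largest of all genes at 1 and 2 weeks after injury, so its changes against uninjured tissue are given as a description with no test. The factors were taken as a family, with earlier results of these data known.

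The animals were adult male mice on a C57BL/6 background with the genotype CX3CR1+/eGFP, in which eGFP stands in place of a Cx3cr1 allele and marks both resident microglia and blood monocytes. All groups carried this allele. Cells with high eGFP were sorted from the thoracic cord around the lesion, or from a matching stretch of cord in non-injured (NI) animals. Their libraries were made from polyadenylated RNA. The groups were NI (n = 3), lateral hemisection (HS) at 72 h (n = 3), 1 week (n = 2) and 2 weeks (n = 3), and full transection (FT) at 72 h, 1 week and 2 weeks (n = 3 each). More mice than libraries were used, so a library holds pooled animals, and which animals went into which library is not given in the sources used here. The p-values therefore measure the spread between pooled libraries. The study names infiltrating monocytes as possible members of the sort.

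Gpnmb encodes glycoprotein nonmetastatic melanoma protein B, a type I membrane glycoprotein of late endosomes, lysosomes and melanosomes that macrophages, osteoclasts, pigment cells and lipid-laden microglia make. Its extracellular part can be released by ADAM metalloproteases. The MiT/TFE factors are basic helix-loop-helix leucine zipper proteins that bind E-boxes as homodimers or as dimers with each other, and Gpnmb is a known target of Mitf in pigment cells and osteoclasts. Tfeb, Tfe3 and Mitf also drive lysosomal and autophagy genes of the CLEAR network (coordinated lysosomal expression and regulation). When nutrients are plentiful, mTORC1 at the lysosome phosphorylates these proteins and holds them in the cytoplasm, so their activity is set to a large part by location rather than by transcript level. Transcript level is all that was measured here.

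Levels are in CPM, the reads of a gene scaled by the size of its library and an edgeR factor. Depth ran from 3.87 M to 34.1 M reads per sample (median 10.1 M), so that 1 read was worth 0.0330 to 0.292 CPM. All 7 microglia markers on the list were detected in every sample, with a summed level of 7652 to 15052 CPM, but their median change against NI was negative in all 6 comparisons (-0.44 to -0.19). Tmem119 was called lower at HS 72 h (-1.22) and FT 72 h (-1.13), Fcrls was called higher at HS 72 h (1.51), FT 72 h (1.61) and FT 1 week (1.15), and P2ry12 was called lower at FT 2 weeks (-1.11), a call that was often lost when a single sample was left out. The replicate libraries correlated with the rest of their own group at a mean Pearson r of 0.961 to 0.987 over all genes, and the lowest of these values belonged to FT 1 week replicate 1. A further library, FT 72 h replicate 1, held the highest level of monocyte and border macrophage markers. Changes are differences of log2(CPM + 0.5), which understates the change of low genes. A gene was called at a Benjamini-Hochberg adjusted p under 0.05 in limma with at least a 2-fold change. Where all samples of a group are said to lie above or below those of another, the share of all genes that do so was not counted. Nothing is read from such a separation alone.

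Gpnmb was low in the cells sorted from uninjured cord and among their more abundant transcripts after injury. The gene lies on the plus strand of chromosome 6 at chr6:49036546-49070929 (mm10, GENCODE vM21), spans 34.4 kb and has exons that cover 6.51 kb in all. The 250 bases before its RefSeq start, chr6:49036268-49036517 (GRCm38.p6, plus strand), are shown because Gpnmb is the gene with the largest rise and a known target of E-box factors.

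Gpnmb: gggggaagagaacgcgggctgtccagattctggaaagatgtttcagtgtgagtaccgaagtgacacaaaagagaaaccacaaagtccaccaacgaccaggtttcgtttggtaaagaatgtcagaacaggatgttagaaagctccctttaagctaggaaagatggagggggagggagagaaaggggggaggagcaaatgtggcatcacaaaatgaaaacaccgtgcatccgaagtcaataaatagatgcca

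The E-box CACGTG was not found on either strand of this stretch or in the first 50 bases from the RefSeq start, and 7.15% of all 32851 windows of the same length in the table held it. The E-box CATGTG was absent too, and 14.2% of all windows held it. The longer forms, which contain the shorter ones, were absent as well. They were in 0.974% of windows for TCACGTGA. For TCATGTGA the share was 0.986%. The AP-1 letters TGANTCA were present as TGACTCA, and 7.81% of all windows held such a match. It begins at base 9 from the RefSeq start, which is before the GENCODE start given above. AP-1 was added to the search after the sequence had been read. Among the other members, Tfe3 also held a match, TGAATCA at base 35 from the RefSeq start of 1 of its 2 windows. These matches describe letters only.

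In NI, the 3 samples gave 2.80, 2.57 and 3.36 CPM of Gpnmb, from 102 reads in all. After HS, the 72 h samples gave 57.1, 74.2 and 97.6 CPM. The 1 week samples gave 144 and 86.0 CPM. Every sample after HS was above every NI sample, while the ranges at 72 h and 1 week overlapped each other. At 2 weeks after HS, Gpnmb stood at 252, 237 and 244 CPM. These samples lay close together, and all 3 were above the samples of both earlier times. By rank of the mean level among all genes, Gpnmb moved from place 11116 in NI to place 2360, then 1234 and last 564 over the course of HS.

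After FT, the 72 h samples were at 289, 104 and 98.8 CPM. The first of them stood apart from the other two and was the sample with the highest macrophage markers. The 1 week samples were at 223, 246 and 291 CPM. The 2 week samples were at 238, 260 and 212 CPM. After FT, the 1 week and 2 week ranges overlapped, and both lay within or just above the wide range at 72 h.

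**Figure D1:**
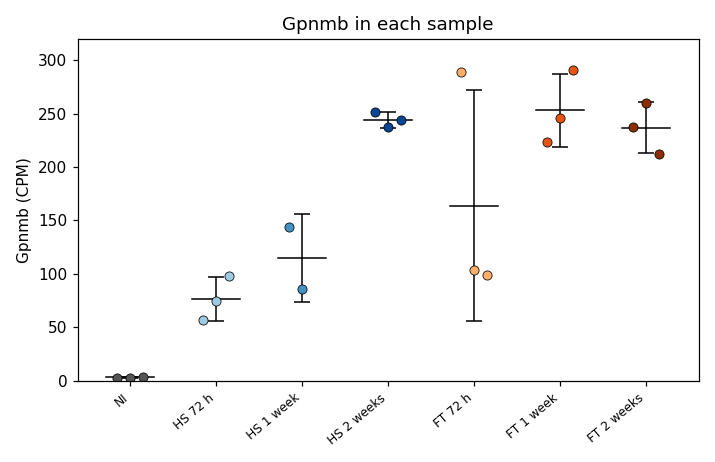
Gpnmb level in CPM (y axis, linear) in each of the 7 groups (x axis); points are samples, horizontal bars the mean and vertical bars 1 SD over 2 or 3 samples. The NI samples lie between 2.57 and 3.36 CPM, and all injured samples lie between 57.1 and 291 CPM.

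As a description, the change against the shared NI samples after HS was 4.47 ± 0.29 (log2, SE) at the 72 h point, 5.04 ± 0.33 a week after injury and 6.17 ± 0.29 at the last time. For FT it was 5.41 ± 0.29 at 72 h, 6.22 ± 0.29 at 1 week and 6.12 ± 0.29 at 2 weeks, a fold of 42.5, 74.3 and 69.6 on the same scale. Without FT 72 h replicate 1, the 72 h change after FT was 4.91. In the order of rises over all genes, Gpnmb stood at place 11 at HS 72 h and at place 2 at FT 72 h, and it stood at place 1 in the other 4 comparisons. Just behind it were Fn1, which encodes fibronectin, at HS 1 week (4.84), Spp1, which encodes osteopontin, at HS 2 weeks (5.29), the apolipoprotein gene Apoc1 at FT 1 week (5.71) and the B cell chemokine gene Cxcl13 at FT 2 weeks (5.61). At 72 h, Spp1 had the largest rise after both injuries (5.45 after HS and 5.60 after FT). For scale, 9.08% of all genes were called higher and 4.31% lower against NI at HS 72 h, 1.7% and 0.482% at HS 1 week, and 2.43% and 0.797% at HS 2 weeks. After FT the shares were 8.14% higher and 4.09% lower at 72 h, 2.86% higher and 1.2% lower at the 1 week point, and 3.53% higher and 1.36% lower at the 2 week point. Gpnmb was selected in these comparisons, so nothing is read from its place among them.

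The comparison of FT with HS asks whether the extent of the lesion mattered. This contrast was not what chose Gpnmb, but the levels at 1 and 2 weeks that it compares were used in that choice. The p-values of Gpnmb at those times are therefore not free of the selection. At 72 h, Gpnmb was higher in FT than in HS by 0.94 (log2, 95% interval 0.33 to 1.56), but the adjusted p was 1.00. The samples did not overlap, though the lowest of FT (98.8 CPM) was only just above the highest of HS (97.6 CPM). The difference was 0.44 without FT 72 h replicate 1. At 1 week it was 1.17 (interval 0.49 to 1.86, adjusted p = 0.983, unadjusted p = 0.00183), again with no overlap. At 2 weeks it was -0.05 (interval -0.66 to 0.56, adjusted p = 1.00). The test across all genes therefore called none of the 5 members at any time, and 0% of all genes were called by limma at each time, with 505, 724 and 438 genes at an unadjusted p under 0.05 at 72 h, 1 week and 2 weeks. Of the members, Gpnmb alone was under that level, at 72 h and 1 week. On recovered reads, edgeR's quasi-likelihood test called 0 genes at each time and DESeq2 called 0, 7 and 1 genes, none of them a member.

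Between the later times, the difference of Gpnmb after HS was 1.13 on the log2 scale from 1 to 2 weeks (interval 0.45 to 1.81), which was not called (adjusted p = 0.616). After FT the same step was -0.09 (interval -0.71 to 0.52, adjusted p = 0.998). The levels at both of these times were used in the choice of Gpnmb, so these p-values are not free of the selection. Whether these steps differed between HS and FT was not tested. Of all genes, 0.0119% were called between those times after HS and 0.0714% after FT. From 72 h to 2 weeks, given as a description, Gpnmb differed by 1.71 after HS and by 0.71 after FT, and the FT value ran from 0.44 without FT 72 h replicate 3 to 1.21 without FT 72 h replicate 1.

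Tfec was the lowest of the family and the only factor that was called on the deposited scale. Tfec encodes the family member whose expression is most restricted to macrophages and related myeloid cells, and it lacks part of the activation domain of the others. It lies on the minus strand at chr6:16833373-16898441 with exons that cover 5.59 kb. Its own upstream 250 bases, chr6:16898442-16898691 (GRCm38.p6, minus strand), are shown beside those of Gpnmb because these are the members with the largest changes.

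Tfec: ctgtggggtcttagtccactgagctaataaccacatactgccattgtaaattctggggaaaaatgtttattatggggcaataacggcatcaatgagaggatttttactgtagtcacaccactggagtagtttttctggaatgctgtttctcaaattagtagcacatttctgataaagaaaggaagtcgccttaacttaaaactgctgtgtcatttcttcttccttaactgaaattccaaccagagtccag

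This stretch and the 50 bases after it held none of the E-box or AP-1 forms above on either strand.

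In NI, Tfec was at 0.655, 0.515 and 0.192 CPM, which are 17 reads over the 3 samples. At HS 72 h it was at 7.13, 2.73 and 1.85 CPM. At FT 72 h it was at 5.62, 2.04 and 2.23 CPM. At 72 h all 6 injured samples were above all NI samples, and in each injury replicate 1 was well above the other two. At 1 week the samples were at 0.545 and 2.17 CPM after HS and at 0.889, 2.79 and 2.13 CPM after FT. At 2 weeks they were at 0.468, 1.28 and 0.845 CPM after HS and at 1.03, 2.00 and 0.687 CPM after FT. Some samples of these later groups were within the NI range after HS, and none was after FT.

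At 72 h Tfec rose by 2.05 ± 0.47 (log2, SE) after HS (adjusted p = 0.00237, limma) and by 1.90 ± 0.47 after FT (adjusted p = 0.0048). It was the only one of the 4 factors called at that time, where 9.08% of all genes were called higher after HS and 8.14% after FT. Without HS 72 h replicate 1 the change after HS was 1.56 (adjusted p = 0.0255), and without FT 72 h replicate 1 the change after FT was 1.50 (adjusted p = 0.0388). Since the NI level rests on few reads, the size of the change depended on the scale and the samples, from 1.56 to 3.12 after HS and from 1.48 to 2.85 after FT over 31 other settings, all of which called it.

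At 1 week Tfec stood 0.84 ± 0.52 (log2, SE) above NI after HS (adjusted p = 0.57) and 1.30 ± 0.47 after FT (adjusted p = 0.11). Without HS 1 week replicate 2, the log2 change after HS was only 0.16. Without FT 1 week replicate 1, the library farthest from its group, the FT change was 1.66 and was called (adjusted p = 0.033), as it was by DESeq2 (2.05) and by edgeR's likelihood ratio test (2.02). At 2 weeks it stood 0.51 ± 0.47 above NI after HS (adjusted p = 0.675) and 0.83 ± 0.47 after FT (adjusted p = 0.359). No factor was called by limma at these times, when 1.7% to 3.53% of all genes were called higher. At an unadjusted p under 0.05 there were 0 of the 4 factors at HS 1 week, 1 at HS 2 weeks, 2 at FT 1 week and 1 at FT 2 weeks. The count by edgeR's quasi-likelihood test was 0 in all 4 of these comparisons.

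Tfec then fell after HS, by 1.55 ± 0.47 on the log2 scale from 72 h to 2 weeks (adjusted p = 0.0363), in a comparison in which 4.74% of all genes were called. The call was lost when any of HS 72 h replicate 1, HS 72 h replicate 2, HS 2 weeks replicate 1 or HS 2 weeks replicate 3 was left out, and the difference was -1.06 without HS 72 h replicate 1. From 72 h to 1 week after HS the difference was -1.21 ± 0.52 (adjusted p = 0.14), where 6.03% of genes were called, and it ran from -1.89 to -0.54 when either HS 1 week sample was left out. After FT the differences from 72 h were -0.61 at 1 week (adjusted p = 0.502) and -1.07 at 2 weeks (adjusted p = 0.199), where 3.44% and 3.81% of genes were called. Without FT 72 h replicate 1 these differences were -0.20 and -0.67. Beside this, Gpnmb was lower at 72 h than at 2 weeks in 5 of the 6 samples taken at 72 h. The highest group means of Tfec and of Gpnmb fell at different times after each injury. Since Gpnmb was selected on its rise at 1 and 2 weeks, nothing is read from this difference in timing.

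Mitf, the factor that specifies pigment cells and, with Tfe3, acts in osteoclast formation, was expressed in every sample and was not called in any comparison. It lies on the plus strand at chr6:97807052-98021349, spans 214 kb and has 6 protein-coding transcripts that start at several promoters, which gene-level reads cannot tell apart. In NI, Mitf was at 21.3, 29.9 and 32.7 CPM. At 72 h it was at 20.7, 29.3 and 26.2 CPM after HS and at 21.0, 30.4 and 33.6 CPM after FT, close to the range in NI.

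At 1 week Mitf was at 34.0 and 36.7 CPM after HS and at 50.7, 42.3 and 36.7 CPM after FT. At 2 weeks it was at 43.8, 46.4 and 30.3 CPM after HS and at 40.1, 37.2 and 40.4 CPM after FT. In 3 of these 4 later groups all samples were above all NI samples, and at HS 2 weeks replicate 3 fell inside the NI range. All 4 groups are set against the same few NI samples, and the share of all genes that separate in this way was not counted. Nothing is therefore read from this separation. The change against NI was largest at FT 1 week, at 0.63 ± 0.22 (log2, interval 0.18 to 1.08, adjusted p = 0.0878), and 0.51 without FT 1 week replicate 1. It was 0.51 ± 0.22 at HS 2 weeks (adjusted p = 0.22) and 0.50 ± 0.22 at FT 2 weeks (adjusted p = 0.193). The 95% intervals of these 3 differences, not adjusted for the number of genes, ran from 0.05 at the lowest to 1.08 at the highest. At 72 h the changes were -0.13 after HS and 0.01 after FT.

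Tfeb and Tfe3, the family members most studied as switches of lysosome formation, did not pass the test in any comparison with NI. Tfeb lies at chr17:47737030-47792419 and Tfe3 at chrX:7762560-7775202, both on the plus strand. Tfeb was at 12.3, 13.4 and 11.7 CPM in NI. At 72 h it was at 6.28, 10.2 and 8.20 CPM after HS and at 8.86, 4.38 and 9.71 CPM after FT. All 6 of these samples were below all NI samples. The share of all genes that separate in this way was not counted, so nothing is read from this separation. Called lower at 72 h were 4.31% (HS) and 4.09% (FT) of all genes. The difference of Tfeb, which was not called, was -0.59 ± 0.37 after HS (limma, adjusted p = 0.242) and -0.74 ± 0.37 after FT (adjusted p = 0.156). With every column scaled to the same total, Tfeb was called lower at both, with -1.08 after HS and -1.19 after FT. Its spread was wide later, from 6.20 to 22.5 CPM at HS 2 weeks and from 7.89 to 18.1 CPM at FT 1 week, where FT 1 week replicate 1 was the highest.

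Tfe3 was at 88.0, 108 and 104 CPM in NI. At 72 h it was at 86.2, 72.7 and 92.3 CPM after HS and at 89.2, 58.7 and 83.6 CPM after FT. At the later times it ranged from 78.9 to 111 CPM over 11 samples. The ranges overlapped with NI in all 6 comparisons. The largest difference was -0.39 ± 0.17 at FT 72 h (interval -0.75 to -0.03, adjusted p = 0.107). It depended on the scaling. With quantile scaling, Tfe3 was at -0.70 at FT 72 h (limma, adjusted p = 0.00923) and -0.62 at HS 72 h (adjusted p = 0.0188). With every column scaled to the same total it was at -0.86 (adjusted p = 0.00214) and -0.76 (adjusted p = 0.00422), where the median of all genes was -0.48 and -0.52. All 4 values were short of 2-fold and not called. From 72 h to 2 weeks after FT all 4 factors were at an unadjusted p under 0.05, with Mitf at 0.49, Tfeb at 0.80 and Tfe3 at 0.41 higher and Tfec lower, but none was called.

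**Figure D2:**
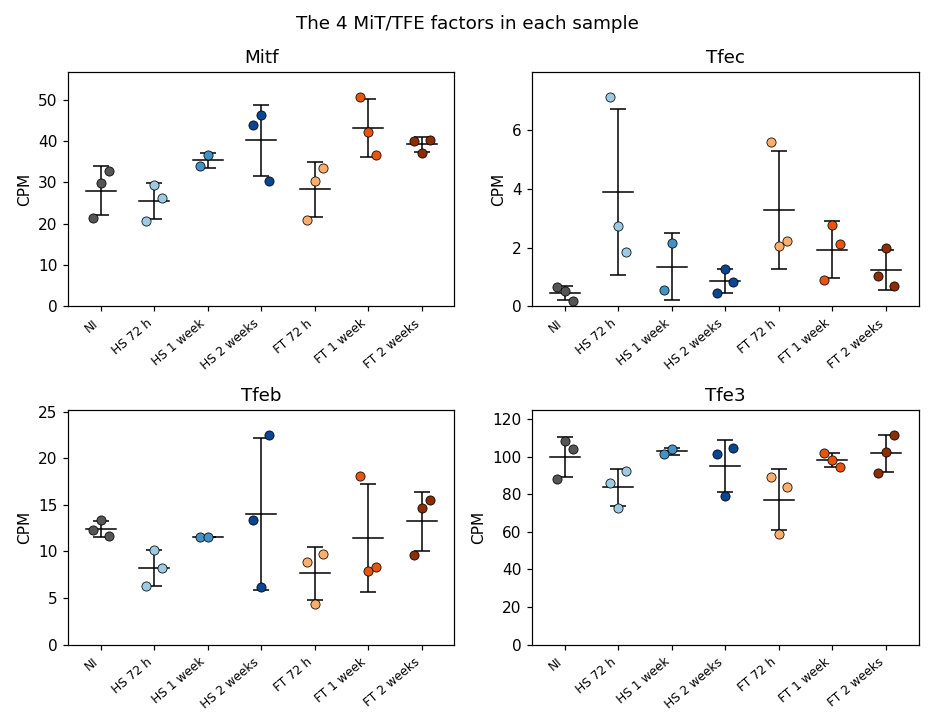
Levels in CPM (y axes, linear from 0, a scale for each gene) of Mitf, Tfec, Tfeb and Tfe3 in each sample of the 7 groups; points are samples, horizontal bars means and vertical bars 1 SD. Tfec is highest at 72 h, up to 7.13 CPM, whereas Mitf has its highest means at FT 1 week (43.3 CPM) and HS 2 weeks (40.2 CPM).

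Per kilobase of exon, which allows levels of different genes to be compared, the order of the factors was Tfe3, Mitf, Tfeb and Tfec in 19 of 20 samples. HS 72 h replicate 1 was the exception, in which Tfec was above Tfeb. In NI, Tfe3 made up 61.5% ± 1.0 (SD, n = 3) of the family's CPM per kb, Mitf 25.5% ± 2.9, Tfeb 12.6% ± 1.6 and Tfec 0.480% ± 0.293. At HS 72 h the share of Tfec was 4.61% ± 3.41, and at FT 72 h it was 3.93% ± 2.19. The share of Mitf was 34.9% ± 1.8 at FT 1 week and 32.0% ± 3.0 at FT 2 weeks, where that of Tfe3 was 53.5% ± 4.2 and 55.2% ± 1.0. Shares of a whole are tied to each other, and they were not tested. Gpnmb itself was at 0.447 ± 0.062 CPM per kb in NI, below Tfe3 (10.8 ± 1.2), Mitf (4.51 ± 0.96) and Tfeb (2.20 ± 0.15). At FT 1 week it was at 38.9 ± 5.3 CPM per kb, above each of the 4 factors.

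**Figure D3:**
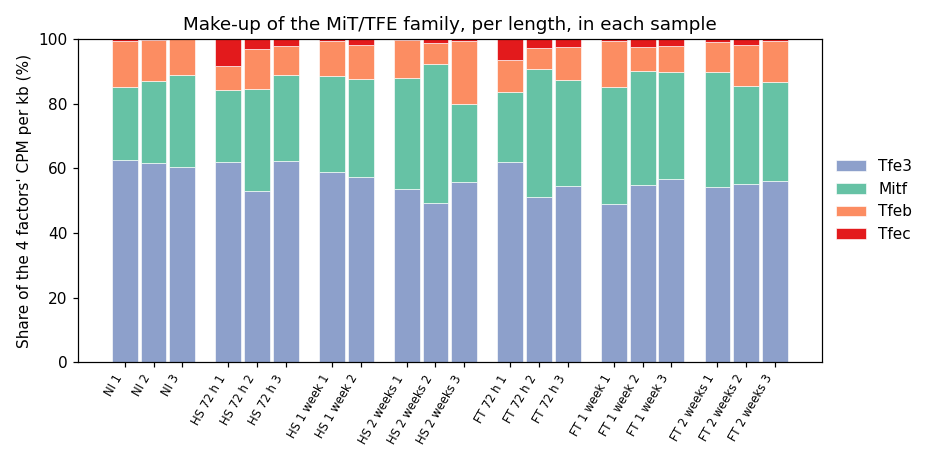
Share of each factor (colours) in the summed CPM per kb of the 4 MiT/TFE factors (y axis, percent) in each of the 20 samples (x axis, group and replicate). Tfe3 is the largest part in every sample, and Tfec is visible mainly at 72 h, with at most 8.49% in HS 72 h replicate 1.

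Over all 20 samples, the Pearson r of Gpnmb in log2(CPM + 0.5) was 0.44 with Mitf, 0.37 with Tfec, -0.06 with Tfeb and -0.06 with Tfe3. Over the 17 injured samples it was 0.49 with Mitf, 0.44 with Tfe3, 0.37 with Tfeb and -0.40 with Tfec. Tfeb and Tfe3 followed each other most closely in the family (0.75 over 20 samples). These values describe the samples, which share groups, and they were not tested.

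Markers of other cells moved with some of these results. The 8 monocyte and macrophage markers summed to 38.5 to 44.8 CPM in NI, to 85.4 to 174 CPM at HS 72 h and to 114 to 348 CPM at FT 72 h. At 72 h limma called 4 of 8 higher after HS and 7 of 8 after FT, beside 9.08% and 8.14% of all genes. The leading genes were Arg1 (4.13 at FT 72 h) and Chi3l3 (3.35), both markers of alternatively activated macrophages, and S100a4 (2.54 at HS 72 h). Without FT 72 h replicate 1 the values at FT 72 h were 3.44 for Arg1 and 2.53 for Chi3l3. FT 72 h replicate 1 had the highest sum, 348 CPM, together with the highest Gpnmb and Tfec of its group. Within HS 72 h the order did not match, since replicate 1 had the highest Tfec and the lowest marker sum (85.4 CPM). At 1 and 2 weeks the sums were 26.7 to 73.9 CPM and none of the 8 genes was called, while Gpnmb was between 86.0 and 291 CPM. Of all genes, 1.7% to 3.53% were called higher at these times. The sums at HS 1 week (46.3 and 73.9 CPM) were still above those of NI. The list's median change was 1.13 at HS 1 week and 0.71 at HS 2 weeks, with 7 of 8 changes positive each time. After FT it was 0.29 at 1 week (6 of 8 positive) and 0.14 at 2 weeks (4 of 8 positive). The 6 border macrophage markers, among them the hyaluronan receptor gene Lyve1, fell from 195 to 214 CPM in NI to 37.6 to 65.7 CPM at 2 weeks, when all 6 were called lower after both injuries (F13a1 at HS 2 weeks was not called without NI replicate 1 or 2 or HS 2 weeks replicate 1 or 3), and FT 72 h replicate 1 had the highest sum, 325 CPM. Of all genes, 0.797% were called lower at HS 2 weeks and 1.36% at FT 2 weeks. The part of monocytes and border macrophages in the levels of Gpnmb and Tfec, at 72 h or later, was not tested. In such bulk samples, fewer cells of a type and less RNA per cell cannot be told apart.

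**Figure D4:**
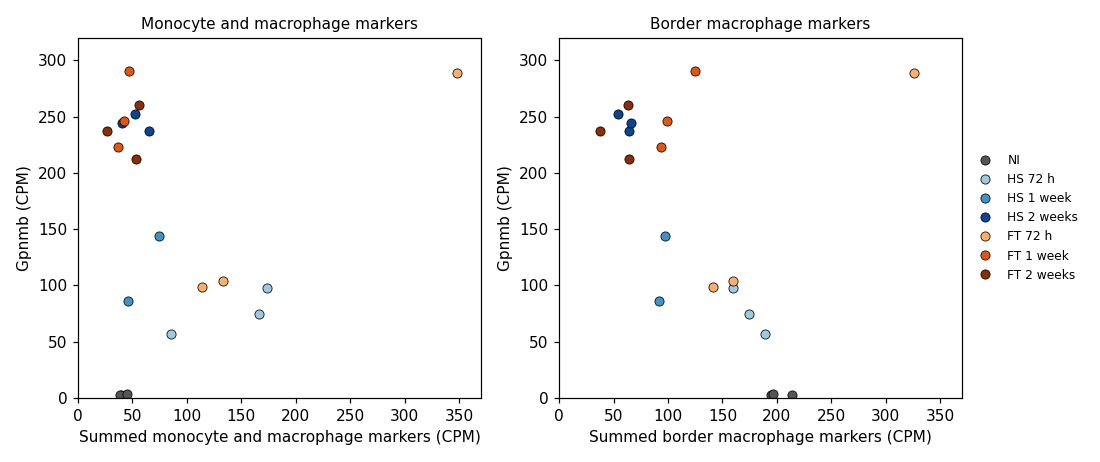
Gpnmb (y axes, CPM) against the summed level of 8 monocyte and macrophage markers (left, x axis in CPM) and of 6 border macrophage markers (right) in each sample, coloured by group. The 2 week samples have 212 to 260 CPM of Gpnmb at 26.7 to 65.4 CPM of monocyte markers, and FT 72 h replicate 1 lies at the far right of both panels.

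Neutrophil, lymphocyte and oligodendrocyte lists held no called gene. The median change of the oligodendrocyte list against NI was negative in every comparison (-0.99 to -0.71). That of the neutrophil list ran from -1.53 at HS 72 h to 0.44 at FT 2 weeks, and that of the lymphocyte list from -0.39 to 0.51. Oligodendrocyte markers summed to 367 to 2327 CPM, with NI at 1093 to 2216 CPM. Neutrophil markers reached 182 CPM in a sample of FT 2 weeks and 15.6 to 61.6 CPM in NI, and lymphocyte markers were at 1.85 to 8.36 CPM in all samples.

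The genes that control the factors were next. Of 22 regulators, which include the Rag GTPases, the Ragulator subunits, folliculin, mTORC1 and its TSC brake, calcineurin and the channel gene Mcoln1, 3 were called higher at HS 72 h, 2 at FT 72 h, 1 at FT 1 week and 2 at FT 2 weeks, and 0 at HS 1 week and HS 2 weeks. None was called lower. Of all genes, 9.08%, 8.14%, 2.86% and 3.53% were called higher in the first 4 of these comparisons, so the counts at 72 h are near what the share of all genes gives. The median change of the list was 0.08, 0.06 and 0.28 at 72 h, 1 week and 2 weeks after HS and 0.10, 0.24 and 0.23 after FT, beside medians of all genes between -0.11 and 0.02. For the counts of 0, limma gave 4 and 6 genes at an unadjusted p under 0.05, edgeR's quasi-likelihood test called 0 and 0, and DESeq2 called 0 and 1. Those called were subunits of Ragulator, which holds the Rag GTPases and mTORC1 on the lysosome, and a Rag GTPase. Lamtor2 rose by 2.08 ± 0.30 (log2, SE) at HS 72 h (adjusted p = 2.26e-05), from a mean of 34.9 CPM in NI to 148 CPM, and Lamtor1 rose by 1.38 ± 0.19 (adjusted p = 1.23e-05). Lamtor5 rose by 1.09 ± 0.20 at the same time (adjusted p = 0.000447), and by less than 2-fold without HS 72 h replicate 2 (0.95). The call of Lamtor1 at FT 72 h (1.01) was lost without NI replicate 1 or 2 or FT 72 h replicate 3. That of Lamtor2 at FT 1 week (1.19) was lost without NI replicate 2 or 3 or FT 1 week replicate 3. Rragd, which encodes RagD and is itself a known target of the MiT/TFE factors, was called only at FT 2 weeks in limma, with 1.03 ± 0.30 (adjusted p = 0.0362), a call that was lost when any single NI sample, FT 2 weeks replicate 2 or FT 2 weeks replicate 3 was left out, and it is named after its values were seen.

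Lysosomal genes rose in part. Of 27 genes of the CLEAR network, 10 were called higher at 72 h and 2 weeks after both injuries, 3 at HS 1 week and 9 at FT 1 week, and none lower. The shares of all genes called higher differed between times, with 9.08%, 1.7% and 2.43% in the HS comparisons from the first time to the last, and 8.14%, 2.86% and 3.53% in those of FT. The list's median change was 0.51, 0.44 and 0.70 at 72 h, 1 week and 2 weeks after HS and 0.57, 0.82 and 0.85 after FT. All of these calls came from 10 genes, 3 of which (Galns, Ctsb and Gla) were called in all 6 comparisons. The call of Ctsb at HS 1 week (adjusted p = 0.0459) was lost when any single NI or HS 1 week sample was left out, and also without some single samples of other groups. Without HS 1 week replicate 1, that of Galns at HS 1 week was lost too, and that of Gla at FT 1 week was lost without FT 1 week replicate 1. Galns encodes a sulfatase that degrades keratan sulfate, Ctsb the protease cathepsin B and Gla the enzyme alpha-galactosidase A. The counts depended on the scaling: with every column brought to the same total, which shifts the median change of all genes against NI by -0.19 to -0.42, 6, 3, 4, 7, 2 and 5 genes were called at HS 72 h, HS 1 week, HS 2 weeks, FT 72 h, FT 1 week and FT 2 weeks.

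Galns was at 18.8, 18.9 and 20.5 CPM in NI and at 117, 82.4 and 109 CPM at FT 72 h, a rise of 2.36 ± 0.23 (log2, SE, adjusted p = 2.13e-07). At FT 2 weeks it was at 71.7, 49.5 and 55.8 CPM, above all NI samples and below all those of FT 72 h. Ctsb rose by 2.12 ± 0.32 at FT 72 h (adjusted p = 4.65e-05) from a mean of 4634 CPM in NI to 20071 CPM. Gusb, which encodes beta-glucuronidase, rose by 2.07 ± 0.24 at HS 72 h (adjusted p = 1.46e-06), from a mean of 244 CPM to 1022 CPM, and stood at 509 CPM at HS 2 weeks. These leading genes had their highest group means at 72 h after both injuries, but they were named by their largest change, which fell at 72 h. The list's median change went from 0.51 at 72 h to 0.70 at 2 weeks after HS, and from 0.57 to 0.85 after FT. Gpnmb had its highest mean at 2 weeks after HS and at 1 week after FT. It was selected on its rise at 1 and 2 weeks, so nothing is read from this difference in timing.

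**Figure D5:**
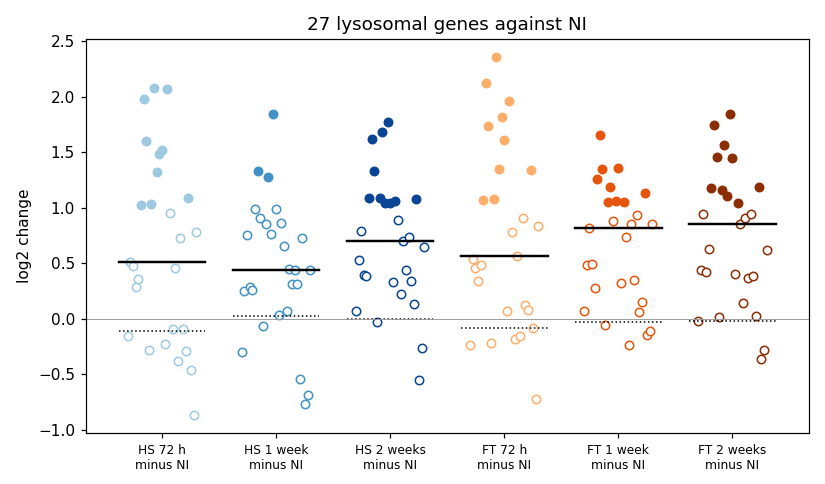
Change against NI (y axis, log2) of 27 lysosomal genes of the CLEAR network in the 6 comparisons (x axis); filled points were called, thick lines are the list's median and dotted lines the median of all 16810 genes. The list's median lies between 0.44 and 0.85, and 3 to 10 genes per comparison are filled.

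The promoter table held a window for 19 of these 27 genes, too few to read a share over the list, and for 7 of the 10 called genes. The letters CACGTG were found in 5 of these 7 and in 13 of the 19, so nothing is read from them about which genes were called. The sites of the 5 are shown with 10 bases on each side for comparison with Gpnmb and Tfec, whose windows held none.

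Gla, chrX:134601217-134601242: agcgattgatCACGTGagcatctacg
Gla, chrX:134601184-134601209: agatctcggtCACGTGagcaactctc
Ctsd, chr7:142387910-142387935: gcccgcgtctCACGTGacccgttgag
Glb1, chr9:114401020-114401045: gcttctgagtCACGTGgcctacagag
Ctsa, chr2:164833751-164833776: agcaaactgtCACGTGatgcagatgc
Ctsa, chr2:164833768-164833793: tgcagatgctCACGTGaccagagcta
Gaa, chr11:119267813-119267838: tctgtgcgatCACGTGtttgactctg

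The capitals mark CACGTG, which reads the same on both strands. Sequence and coordinates are from RefSeq (GRCm38.p6), written along the gene's own strand. Ctsd encodes cathepsin D, Glb1 beta-galactosidase, Ctsa cathepsin A and Gaa acid alpha-glucosidase. The network was defined in other work by such sites near lysosomal genes, so their presence is not independent of the list.

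Subunits of the proton pump that acidifies lysosomes were called in 5 of the 6 comparisons. Of 17 subunit genes, 7 were called higher at HS 72 h and 3 at FT 72 h, 0 and 2 at 1 week after HS and FT, and 2 at 2 weeks after each injury, beside 9.08%, 1.7% and 2.43% of all genes in the HS comparisons in order of time, and 8.14%, 2.86% and 3.53% in those of FT. The median was 0.77 at HS 72 h and 0.76 at FT 72 h. At HS 1 week, where 0 were called, 5 genes were at an unadjusted p under 0.05 in limma and the quasi-likelihood test of edgeR and DESeq2 also called 0. Atp6v1a, the catalytic subunit, rose by 1.61 ± 0.21 at FT 72 h (log2, SE, adjusted p = 1.05e-05), and Atp6v1f by 1.20 ± 0.20 at HS 72 h (adjusted p = 0.000158). Tcirg1, an a-subunit gene used in osteoclasts, was called lower at FT 72 h, with -1.05 ± 0.30 (adjusted p = 0.0139), or -0.59 and not called without FT 72 h replicate 2, and also not called without NI replicate 2. Of all genes, 4.09% were called lower at FT 72 h. Tcirg1 is named after its values were seen.

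Atp6v0d2, a d-subunit gene that osteoclasts and macrophages use and that is in the osteoclast list too, was highest at 2 weeks. It was at 1.61, 1.29 and 0.767 CPM in NI and at 1.22, 0.565 and 0.410 CPM at HS 72 h. At HS 2 weeks it was at 5.30, 7.05 and 4.35 CPM, a rise of 1.83 ± 0.30 against NI (log2, SE, adjusted p = 0.00051). At FT 2 weeks it rose by 1.78 ± 0.30 (adjusted p = 0.000408). All samples of both 2 week groups were above all NI samples.

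Of 13 osteoclast genes, 1 was called higher and 2 lower at HS 72 h, 3 higher at HS 2 weeks, 1 higher and 1 lower at FT 72 h, and 2 higher at both FT 1 week and FT 2 weeks. At 72 h, 9.08% (HS) and 8.14% (FT) of all genes were called higher, and at FT 1 week, HS 2 weeks and FT 2 weeks the shares were 2.86%, 2.43% and 3.53%, so 1 of 13 higher at 72 h does not stand above the share of all genes. The shares of all genes called lower at 72 h were 4.31% (HS) and 4.09% (FT). The medians lay between -0.23 and 0.16. At HS 1 week, 0 were called by limma, by the quasi-likelihood test of edgeR and by DESeq2, with 3 at an unadjusted p under 0.05. Acp5, which encodes tartrate-resistant acid phosphatase, rose by 3.43 ± 0.50 at FT 72 h (adjusted p = 3.07e-05), or 2.92 without FT 72 h replicate 1, and by 2.94 ± 0.50 at HS 72 h (adjusted p = 0.000151). Its samples at HS 2 weeks were at 22.9, 3.42 and 3.38 CPM, against 1.19, 1.54 and 0.863 CPM in NI, so that the mean there rests on replicate 1, without which the change went from 2.08 to 1.22 and was not called (adjusted p = 0.0861). That call was also lost without NI replicate 3. Dcstamp, which encodes a fusion protein of osteoclasts and giant cells, rose by 1.74 ± 0.33 at HS 2 weeks (adjusted p = 0.00169) and by 1.57 ± 0.33 at FT 2 weeks (adjusted p = 0.00281). It was low throughout, with at most 3.63 CPM. The genes called lower were Src, a tyrosine kinase gene that bone resorption needs, at HS 72 h (-1.44 ± 0.22, adjusted p = 6.83e-05) and FT 72 h (-1.40), and Mmp9, a matrix protease gene, at HS 72 h (-1.58 ± 0.55, adjusted p = 0.0356). The call of Mmp9 was lost without NI replicate 1 or 2 or HS 72 h replicate 1 or 2. Both are named after their values were seen.

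Pigment cell genes, the other known targets of Mitf, were not called in any comparison. The 7 of 9 listed genes that the table held summed to 7.01 to 17.5 CPM over all 20 samples, with NI at 9.71 to 14.2 CPM. Their median changes lay between -0.29 and 0.39. Pmel, the closest relative of Gpnmb and a melanosome protein, was at 0.834, 1.42 and 1.34 CPM in NI and between 0.464 and 2.54 CPM in the injured samples. The largest differences in the list were those of Oca2 (-0.73 ± 0.43, adjusted p = 0.223) and of Tyr, the tyrosinase gene (-0.65 ± 0.28, adjusted p = 0.1), both at FT 72 h. Over the 42 tests of this list against NI, 1 had an unadjusted p under 0.05 in limma, and edgeR's quasi-likelihood test and DESeq2 called 0.

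Other bHLH-zip factors that bind E-boxes also had no call. Over the 60 tests of these 10 genes against NI, 11 had an unadjusted p under 0.05 in limma, and edgeR's quasi-likelihood test and DESeq2 called 0. Their medians lay between -0.30 and -0.02. Mlxip was at -0.95 ± 0.23 at HS 72 h with an adjusted p of 0.00349, short of 2-fold, and Myc was at -0.94 ± 0.39 at FT 72 h (adjusted p = 0.0871).

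Among autophagy genes, 1 of 18 was called higher in each comparison except HS 1 week, where 0 were called by limma, edgeR's quasi-likelihood test and DESeq2 and 6 were at an unadjusted p under 0.05. That is no more than the share of all genes called higher at 72 h (9.08% and 8.14%), and the shares at the later times were 2.43% at HS 2 weeks, 2.86% at FT 1 week and 3.53% at FT 2 weeks. The gene was Atg7, which encodes the E1-like enzyme of autophagy, at 72 h (1.03 after HS, 0.87 without HS 72 h replicate 1, and 1.10 after FT, 0.98 without FT 72 h replicate 1), and Optn, the autophagy receptor optineurin, at the later times. The calls of Optn at HS 2 weeks and FT 1 week were lost without NI replicate 2, and the former also without HS 2 weeks replicate 2. Optn rose by 1.37 ± 0.22 at FT 2 weeks (log2, SE, adjusted p = 0.000192), from a mean of 5.16 CPM in NI to 13.8 CPM. The medians of the list lay between 0.02 and 0.24.

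Of 7 genes for partners and sheddases of the GPNMB protein, Cd44, a hyaluronan receptor that has been described as a receptor for GPNMB, was called higher in all 6 comparisons. Of the 7 genes, 1 was called higher at 72 h and 1 week and 2 at 2 weeks after each injury. Of all genes, 9.08%, 1.7% and 2.43% were called higher at these times after HS, and 8.14%, 2.86% and 3.53% after FT. The count of 1 at 72 h is thus near what the share of all genes gives. The mean of Cd44 was 13.9 CPM in NI. At HS 2 weeks it was at 82.5, 82.5 and 62.6 CPM, a rise of 2.40 ± 0.25 (log2, SE, adjusted p = 9.3e-07), and at FT 2 weeks the rise was 2.39 ± 0.25 (adjusted p = 7.18e-07). Its change was already 2.07 at HS 72 h and 2.22 at FT 72 h, and all 17 injured samples were above all NI samples. Itga5, an integrin subunit of fibronectin receptors, was called at 2 weeks, with 1.41 ± 0.30 after FT (adjusted p = 0.00364) and 1.15 ± 0.30 after HS (adjusted p = 0.0271), where the call was lost when any single NI sample, HS 2 weeks replicate 1 or HS 2 weeks replicate 3 was left out. The list's medians lay between 0.34 and 0.58.

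The genes whose pattern over the 20 samples was most like that of Gpnmb were sought among 15474 genes with a mean of at least 1 CPM in some group, by Pearson r of log2(CPM + 0.5). The first 10 were Igf1 (0.96), Apoc1 (0.96), Clec7a (0.96), Cst7 (0.96), Lpl (0.95), Myo5a (0.95), Nceh1 (0.95), Dpp7 (0.95), AI427809 (0.95) and Bcar3 (0.95). Igf1 encodes a growth factor, Clec7a the receptor dectin-1, Cst7 the protease inhibitor cystatin F, Lpl lipoprotein lipase, Nceh1 a cholesterol ester hydrolase and Dpp7 a lysosomal peptidase.

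Apoc1 was at 2.26, 2.45 and 2.21 CPM in NI. At 72 h its mean was 39.0 CPM after HS and 48.5 CPM after FT, and at 2 weeks it was 104 and 136 CPM. Its change against NI was 3.80 at HS 72 h and 5.60 at FT 2 weeks, beside 4.47 and 6.12 for Gpnmb. Igf1 changed by 3.50 at HS 72 h and 4.68 at FT 2 weeks, and Lpl by 2.87 and 4.11. The 10 genes were chosen for their likeness to Gpnmb in these same samples, so their courses describe the choice and are not tested.

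The factors had other nearest genes. For Mitf these were Chst11 (0.86), Arid5b (0.84) and BC094916 (0.83), and for Tfec they were Dnajc8 (0.90), Twf1 (0.90) and Aldh7a1 (0.88). For Tfeb they were Fxr2 (0.91), Nfkb2 (0.90) and Rxrb (0.89), and for Tfe3 they were Rhbdf1 (0.95), Nsmf (0.89) and Cdk9 (0.88).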

How the data were processed

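Microglia libraries of 20 samples in 7 groups were analysed from 1 deposited table. The authors removed adapters with FASTX-Toolkit, mapped reads with TopHat (TopHat2 2.0.9) to mm10, counted them per gene with HTSeq 0.5.4p3, dropped genes that did not reach 10 reads in 2 or more replicates, and scaled the rest with edgeR 3.3.6; the deposited signal is a normalized count. All 336200 values were whole multiples of a step per sample within 0.001 step, so whole reads were recovered for count tests. Strand and batch are not given in the sources used here.

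limma 3.58.1 with an intensity trend was fitted to log2(CPM + 0.5) of all 20 samples with 1 mean per group, and p-values were adjusted over 16810 genes. The script was tested on simulated data. Alternatives were 0.1 or 1 CPM added, a filter of 1 CPM in 2 samples, the samples of the 2 groups alone, 3 other scalings, no fold limit, a replicate block, edgeR 4.0.16 (quasi-likelihood and likelihood ratio), DESeq2 1.42.0 on recovered reads with the deposited scaling, and leaving out each sample. No list was tested as a set. The members and lists were chosen with earlier results of these data known. The genes named from a list are the 3 called genes with the largest change over the 6 comparisons with NI, or 2 as values where none was called, and others are said to be named after their values were seen. The 10 genes most like Gpnmb and the 3 most like each factor were named too. Exon lengths are unions from GENCODE vM21 and promoter windows are from RefSeq. Chi3l3 stands for Chil3, and 3 listed genes were not in the table. The authors' comparisons were not used.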

Additional observations from a re-analysis of the deposited data

How the results depend on the processing

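Over 32 settings, 11 of 21 counts kept within 1.5 times their value, and each of these 11 was a count of 0 that stayed 0. Every count above 0 moved beyond this limit in at least 1 setting. Among the stable counts were the 0 members called between FT and HS at each time. Of the 4 factors against NI, the count at HS 72 h and at FT 72 h went from 1 to 2 with every column scaled to 1 total, where Tfeb was called lower by -1.08 and -1.19 while the median of all genes stood at -0.52 and -0.48. At FT 1 week it went from 0 to 1 with DESeq2 and with edgeR's likelihood ratio test, and ranged from 0 to 1 when single samples were left out. From HS 72 h to HS 2 weeks it was 1, 0 with columns scaled to 1 total, and 0 to 1 when single samples were left out. The counts of lysosomal genes with columns scaled to 1 total were 6 at HS 72 h, 4 at HS 2 weeks, 2 at FT 1 week and 5 at FT 2 weeks. With quantile scaling they were 3 at HS 2 weeks, 5 at FT 72 h, 3 at FT 1 week and 3 at FT 2 weeks. With no fold limit they were 5 at HS 1 week and 14 at FT 1 week, where the fit to the 2 groups alone gave 5. When single samples were left out they ranged from 1 to 3 at HS 1 week (the lone sample left is assumed to vary like the other groups), 6 to 11 at HS 2 weeks and 5 to 12 at FT 1 week. Directions of changes that passed in no fit were not compared. Apart from the scaling itself, the cause of these shifts was not tested.

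Groups share replicate numbers, which did not pair the samples: the deviations of same-numbered samples correlated at a median of -0.0017 over 57 pairs (-0.39 to 0.38), against -0.0066 for other pairs. With a replicate block, the factors called were 1 at HS 72 h, 1 at FT 72 h and 0 at the other times against NI, and the lysosomal counts were 10, 3, 9, 10, 8 and 10 for HS 72 h, HS 1 week, HS 2 weeks, FT 72 h, FT 1 week and FT 2 weeks. Depth limits Tfec most, with 2 to 11 reads per NI sample.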
